A study of Mus musculus with 12 samples.

Results

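The 45 genes described here carry the glutathione, NRF2 and NADPH defence of the cell against oxidants and reactive chemicals. They were chosen by name, as a list of members in 8 roles: NRF2 and its inhibitor KEAP1, target enzymes of NRF2, thioredoxin and peroxiredoxins, glutathione synthesis and recycling, glutathione peroxidases, glutathione S-transferases, catalase with the superoxide dismutases, and the supply of NADPH. All 45 were among the 15855 genes of the deposited table, and all 45 were among the 14462 genes that passed the filter on low counts. Expression was measured by bulk RNA sequencing of small intestinal epithelial cells sorted for the surface protein EpCAM. The mice were C57BL6/J with no further allele named, male by the study's methods unless stated otherwise there, and 8 to 12 weeks old. The sham group (n = 7) underwent surgery without occlusion, and in the pMCAO group (n = 5) the middle cerebral artery of the brain was closed permanently with an intraluminal filament, a model of stroke. The study counts a larger pMCAO group for this experiment than was analysed here. Cells of both groups were taken at 24 h from the whole small intestine, so that duodenum, jejunum and ileum were pooled within a sample. The question of the comparison was how stroke changes the transcriptome of the gut epithelium.

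The transcription factor NRF2, encoded by Nfe2l2, is held at a low level by KEAP1, which marks it for breakdown. Oxidants and electrophiles modify KEAP1, NRF2 then accumulates and binds the antioxidant response element of its targets, many of which make, use or regenerate glutathione and thioredoxin. Both of these reducing systems draw their electrons from NADPH, which the pentose phosphate pathway and malic enzyme supply. In the small intestine the absorptive cells meet reactive compounds from food and bile, and are known for high levels of glutathione S-transferases and of the brush border enzyme that cleaves glutathione.

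The core of the antioxidant response element, TGACNNNGC, was searched on both strands from 250 bases before to 50 bases after each start of transcription in the RefSeq promoters of mouse build GRCm38.p6. It occurred in 14.0% of 27025 genes and in 12 of the 39 members that had a promoter in that table (30.8%). A match is a run of letters and does not show that NRF2 binds there. The matches of the members singled out by the rule for named genes are shown because these genes carry the comparison, with the core in capitals and 10 bases on either side, except that the most upstream Ggt1 match ends with its window. Each is read 5′ to 3′ on the strand of its gene, so that a core on the opposite strand appears as its reverse complement.
Nfe2l2 (chr2:75704885-75704913, minus strand): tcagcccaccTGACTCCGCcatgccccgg
Ugdh (chr5:65435956-65435984, minus strand): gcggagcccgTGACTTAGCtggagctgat
Ugdh, nearer the start (chr5:65435918-65435946, minus strand): tcctcaagggGCGTGGTCAtacagttcgg
Srxn1 (chr2:152105542-152105570, plus strand): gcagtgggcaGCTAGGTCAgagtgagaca
Ggt1, most upstream start (chr10:75564163-75564181, plus strand): cttgggcatcTGACACAGC
Ggt1, middle start (chr10:75568616-75568644, plus strand): gaagggaggaGCTGGGTCActgctgggga
Ggt1, most downstream start (chr10:75571467-75571495, plus strand): gtcacaagccTGACGCTGCgcctccttgc
Mgst1 (chr6:138140461-138140489, plus strand): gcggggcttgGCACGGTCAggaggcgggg
Sod1 (chr16:90220696-90220724, plus strand): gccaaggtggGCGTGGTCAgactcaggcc
G6pdx (chrX:74428919-74428947, minus strand): aggcgggtcaGCTCAGTCAaagcacacgc
Me1 (chr9:86695902-86695930, minus strand): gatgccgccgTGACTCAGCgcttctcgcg

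Ptgr1, the member with the smallest p between the groups, had no match in its window of 300 bases. Sequence outside that window was not searched. The 209 bases that precede its start in the GENCODE annotation are printed because the groups differ most clearly in this gene. They carry no capitals since no core was found. The GENCODE start lies upstream of the RefSeq start from which the window was counted.
Ptgr1 (chr4:58987120-58987328, minus strand): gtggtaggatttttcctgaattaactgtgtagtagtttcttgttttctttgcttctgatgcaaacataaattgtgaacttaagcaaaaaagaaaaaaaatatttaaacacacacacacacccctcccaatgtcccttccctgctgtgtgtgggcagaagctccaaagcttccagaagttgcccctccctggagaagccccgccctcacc

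Total counts per sample ran from 7418730 to 31925579, and 3 counts corresponded to between 0.0693 and 0.719 CPM (counts scaled to the TMM-adjusted library total). Libraries 58 to 61 in the numbering of the sample titles, which are sham 1, 2 and 3 and pMCAO 1, stood apart from the other 8 on the first principal component, which held 40.6% of the variance. They had 13386 to 14712 genes with a read against 15343 to 15766 in the others, and mitochondrial ribosomal RNA took 34.8% to 54.5% of their counts against 14.6% to 35.2%. Nothing in the labels says what differed, and they are called the early libraries here for their lower numbers only. All 7 epithelial markers (Epcam, Vil1, Cdh1, Krt8, Krt18, Krt19 and Krt20) had reads in every sample, with summed levels of 5280 to 12200 CPM. Of 8 markers of stroma and vessels 6 were not in the table, and the immune markers summed to 34.0 to 480 CPM in sham and 56.7 to 338 CPM in pMCAO samples.

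Levels between genes were compared per length, as CPM per kilobase of the gene's merged exons (RPKM), by the median over the 12 samples. The members were well expressed as a list: 38 of 45 lay above the median gene of the table at 1.74 RPKM, 23 exceeded 10 RPKM and 4 lay under 1 RPKM. Txn1, the cytosolic thioredoxin that reduces protein disulfides, was the highest member at 211 RPKM and ranked 84 among the genes of the table. Ggt1, the brush border enzyme that opens the breakdown of glutathione outside the cell, followed at 67.1 RPKM. Nfe2l2 itself was next at 58.2 RPKM, whereas its inhibitor Keap1 had 1.65 RPKM. Catalase (Cat), which splits hydrogen peroxide, reached 54.7 RPKM, and the ranges of Ggt1, Nfe2l2 and Cat over the samples overlapped.

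Of the 5 genes listed under NADPH supply, the pentose phosphate enzyme Taldo1 was highest at 43.7 RPKM and malic enzyme Me1 lowest at 1.08 RPKM. Among the glutathione S-transferases, which couple glutathione to electrophiles, Mgst3 was highest at 39.4 RPKM and Gstt1 lowest at 6.17 RPKM. The 4 glutathione peroxidases spanned 3.81 RPKM (Gpx2) to 14.6 RPKM (Gpx1), and the 5 genes of glutathione synthesis and recycling 5.89 RPKM (Gss) to 67.1 RPKM (Ggt1). Of the NRF2 target enzymes, Ugdh, which makes the sugar donor for glucuronidation, had 21.3 RPKM, and the xenobiotic epoxide hydrolase Ephx1 was the lowest member of all at 0.424 RPKM. Heme oxygenase 1 (Hmox1) stood beside it at 0.427 RPKM, although it is among the best known NRF2 targets. The level of 43 members was above 0 in every library. Ephx1 had no read in sham 3 and pMCAO 1, and Ces1d none in sham 2, where a count of 0 allows up to 3 counts, or 0.719, 0.256 and 0.616 CPM.

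Some levels are uncertain because the sequence is shared. Of the 50-base stretches of the longest transcript, Gsta1 had 89.7% in common with another gene (mostly Gm3776), Gstp1 62.3% (mostly Gstp2) and Gpx4 61.7% (mostly the pseudogene Gpx4-ps2). A further 4 members, Me1, Gstm3, Prdx2 and Gstm1, shared between 23.1% and 32.8%. Exons of 8 members (Keap1, Txnrd2, Prdx2, Prdx5, Gclm, Gss, G6pdx and Me1) overlap a gene on the opposite strand, and whether the counting used strand is not given in the sources used here.

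**Figure D1:**
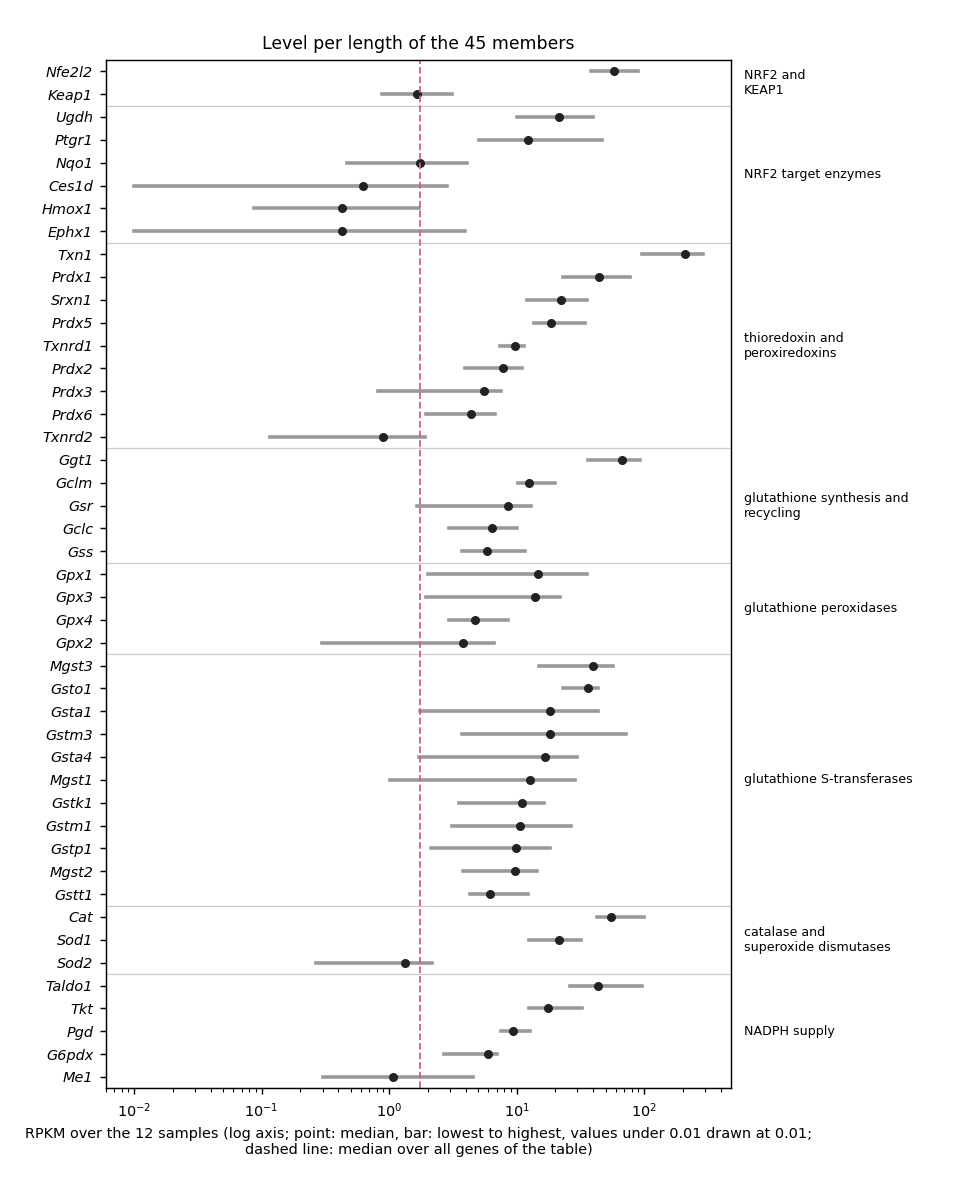
Level per length of the 45 members, in RPKM on a log axis, ordered by role and level. Points are medians over the 12 samples, bars run from the lowest to the highest sample, and the dashed line is the median gene of the table at 1.74 RPKM. Txn1 stands alone at the right at 211 RPKM, while Ephx1 and Hmox1 lie left of 1 RPKM.

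Between pMCAO and sham mice, most members had a fold change above 1 and few of them a large one. Ptgr1 and Mgst1, at 2.87-fold and 3.08-fold the sham level, had the smallest p-values, followed by thioredoxin (Txn1) at 1.67-fold, Ugdh at 0.611-fold, Nqo1 at 2.04-fold and catalase at 1.43-fold. These folds come from limma-voom on group alone over all 14462 genes, and differences are given below on the log2 scale, pMCAO over sham, with their standard error (SE). A gene was called when its p, adjusted over all genes by Benjamini and Hochberg, was no larger than 0.05 and its difference was 1 or more on the log2 scale. In that fit 0 members and 0 of all genes were called (0%). At an unadjusted p under 0.05 there were 6 members (Ptgr1, Mgst1, Txn1, Ugdh, Nqo1 and Cat), 5 higher and 1 lower, against 8.43% of all genes (1219 genes, 4.66% higher and 3.77% lower). The edgeR quasi-likelihood test also called 0 genes (930 at an unadjusted p under 0.05, or 6.43%, with 6 members among them). DESeq2 called 70 genes (0.484%), of which 1 was a member, Ptgr1, and put 7.97% of genes and 6 members at an unadjusted p under 0.05. Here and with the blocks below, DESeq2 adjusted p after its own default filter on mean count. Its calls may thus rest on fewer genes than those of the other tests. The log2 fold change was above 0 for 31 of 45 members and for 55.2% of all genes, and its median was 0.20 over the members and 0.06 over all genes. In RNA of whole sorted samples, fewer cells of a type and less RNA per cell cannot be told apart.

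The study corrected its own fit for the day of tissue collection, which the labels do not give. A fit with 4 blocks of library numbers (58 to 61, 62 to 65, 66 to 68, and 72) was therefore set beside the fit on group alone. Its cuts come from an earlier analysis of these data and not from the labels, and what the blocks stand for is not stated. With the blocks, 47 genes were called (0.325%), and 2 of them were members, Ptgr1 and Mgst1. The 47 fell to 4 without sham 6 and to 6 without pMCAO 1. At an unadjusted p under 0.05 there were 11 members, 9 higher and 2 lower, against 12.7% of all genes (6.58% higher and 6.17% lower), and 31 members against 51.3% of genes had a log2 fold change above 0. With blocks edgeR called 0.145% of genes and 1 member, and DESeq2 0.671% and 2 members, with 11 members each at an unadjusted p under 0.05 (9.16% and 11.3% of genes). A term for the early libraries alone in place of the blocks gave 0.111% of genes called, 0 members called and 11 members at an unadjusted p under 0.05 (10% of genes). The direction was the same in all 3 blocks that hold both groups for 19 members (42.2%), 11 higher and 8 lower, and for 30.2% of all genes. When the early libraries were left out, leaving 4 samples a group, 0 of 15355 genes were called by limma-voom with or without the blocks, and 8 members had an unadjusted p under 0.05 in either fit (7.58% of genes without and 9.25% with the blocks).

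**Figure D2:**
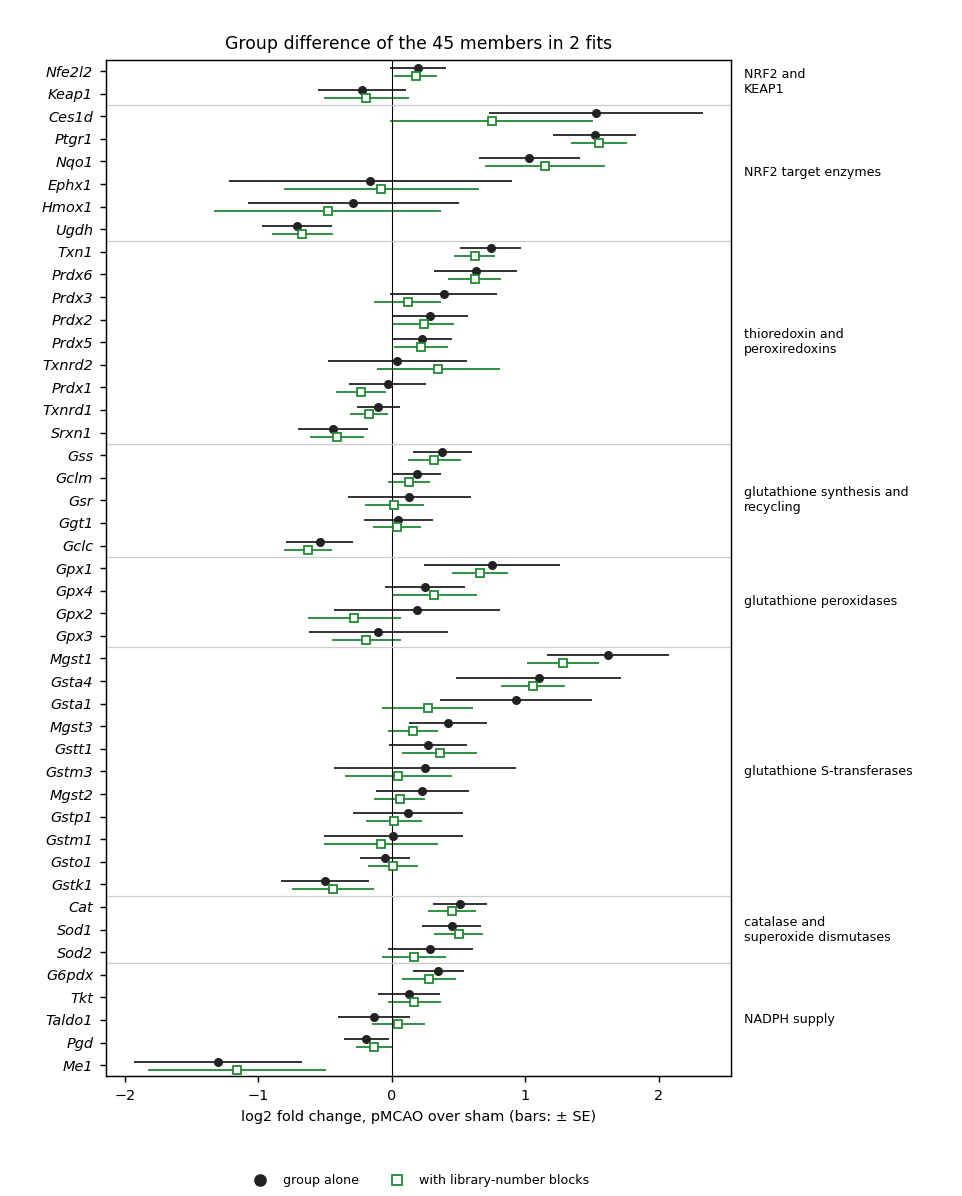
Log2 fold change of pMCAO over sham for the 45 members by role, with bars of 1 SE on either side. Black points are from the fit on group alone and green squares from the fit with library-number blocks. Ptgr1, Mgst1, Nqo1 and Gsta4 lie beyond 1 in both fits, and Me1 beyond -1.

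Ptgr1 (prostaglandin reductase 1) reduces leukotriene B4 and reactive aldehydes with NADPH. It lies on chromosome 4, positions 58965439 to 58987119 of GRCm38, minus strand. Ptgr1 ranged from 11.6 to 28.6 CPM in the sham samples with a median of 20.8, and had 42.7, 45.1, 44.7, 106 and 106 CPM in pMCAO samples 1, 2, 3, 4 and 5, the order kept below. Every pMCAO sample thus lay above every sham sample, which held for 1 of the 45 members and for 0.512% of all genes (0.332% with pMCAO higher). The means were 21.2 ± 6.64 CPM (SD, n = 7) and 68.9 ± 33.9 CPM (SD, n = 5). This gave a log2 fold change of 1.52 (SE 0.31, unadjusted p 0.00014), with an adjusted p of 0.110 by limma-voom on group alone. With the blocks Ptgr1 rose 2.92-fold (log2 1.55, SE 0.21, limma-voom adjusted p = 0.00497). Within the blocks, pMCAO exceeded sham by 1.10, 1.53 and 2.02 on the log2 scale. Leaving out each sample in turn kept the call with the blocks in 11 of 12 fits and lost it without sham 6 (log2 1.22, adjusted p 0.137), the only sham sample of its block. Without the early libraries the log2 fold change was 1.62 on group alone (adjusted p 0.474). The study, which corrected for collection day and counted a larger pMCAO group, lists Ptgr1 as higher after stroke. No other of the 45 members is in its list of differentially expressed genes.

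The highest Ptgr1 was in pMCAO 4 and 5. Of the 7 markers of enterocytes (mature absorptive cells), all with reads in every sample, sucrase-isomaltase (Sis) and Anpep were also highest there, Sis at 3930 and 4860 CPM against 791 to 2400 CPM in the other 10 samples. Alpi, Fabp2, Apoa1 and Apoa4 were highest in pMCAO 1 instead, Apoa4 at 16900 CPM against 4120 and 4380 CPM in pMCAO 4 and 5, and Fabp1 was highest in sham 6. At an unadjusted p under 0.05, 4 enterocyte markers were higher in pMCAO on group alone and 2 with the blocks. With the blocks 1 of the list, Sis, had a limma-voom adjusted p under 0.05 (log2 0.74, SE 0.14, adjusted p 0.0337), under the fold set for a call. The sum of the 7 enterocyte markers ran from 14500 to 25100 CPM in sham with a median of 21700. In pMCAO samples it ran from 18000 to 51300 CPM with a median of 21800. Of the 7 goblet cell markers, 7 had a log2 fold change above 0 on group alone (median 0.88), and at an unadjusted p under 0.05 none was higher on group alone and 4 with the blocks. Their sum was 4100 to 49600 CPM in sham and 7300 to 55100 CPM in pMCAO samples. Of the 8 immune markers, none was higher at that p on group alone and 3 were with the blocks. Of all genes, 4.66% were higher at that p on group alone and 6.58% with the blocks. The part of these cell types in the result was not tested.

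Nqo1, a quinone reductase widely used to read NRF2 activity, was low in all samples. It spanned 0.719 to 2.91 CPM in sham with a median of 2.13, and had 6.33, 3.43, 6.15, 2.72 and 4.02 CPM in pMCAO. Of these, pMCAO 4 alone lay within the sham range, close to its upper end. Nqo1 gave a log2 fold change of 1.03 (SE 0.38, unadjusted p 0.0156), with an adjusted p of 0.504, and 1.15 with the blocks (adjusted p 0.287). Ugdh was the only member lower in pMCAO at an unadjusted p under 0.05 on group alone. The sham samples had 115 to 268 CPM of Ugdh with a median of 176, and the pMCAO samples 127, 68.4, 174, 103 and 69.9 CPM. Samples pMCAO 2, 4 and 5 were below the whole sham range and pMCAO 1 and 3 lay within it (log2 -0.71, SE 0.26, unadjusted p 0.015, adjusted p 0.503). With the blocks Ugdh had -0.67 (SE 0.23, limma-voom unadjusted p 0.0114, adjusted p 0.234).

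Ces1d, a carboxylesterase, had a large but poorly measured log2 fold change of 1.53 (SE 0.80) on group alone that was 0.75 with the blocks (adjusted p 0.728). Its levels were 0 to 3.02 CPM in sham and 1.24 to 6.77 CPM in pMCAO, which overlapped. Hmox1 and Ephx1 spread over a range far wider than any group difference, with 0.152 to 3.01 CPM and 0 to 7.63 CPM over the 12 samples, and log2 fold changes of -0.29 (SE 0.79) and -0.16 (SE 1.06).

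The regulators showed small differences. Nfe2l2 had 144 to 297 CPM in sham with a median of 198, and 341, 199, 200, 281 and 242 CPM in pMCAO. The groups overlapped, although sham 1, 4, 6 and 7 lay below every pMCAO sample, and the log2 fold change was 0.20 (SE 0.21, adjusted p 0.814). Keap1, an adaptor that hands NRF2 to a ubiquitin ligase, had a log2 fold change of -0.22 (SE 0.33).

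**Figure D3:**
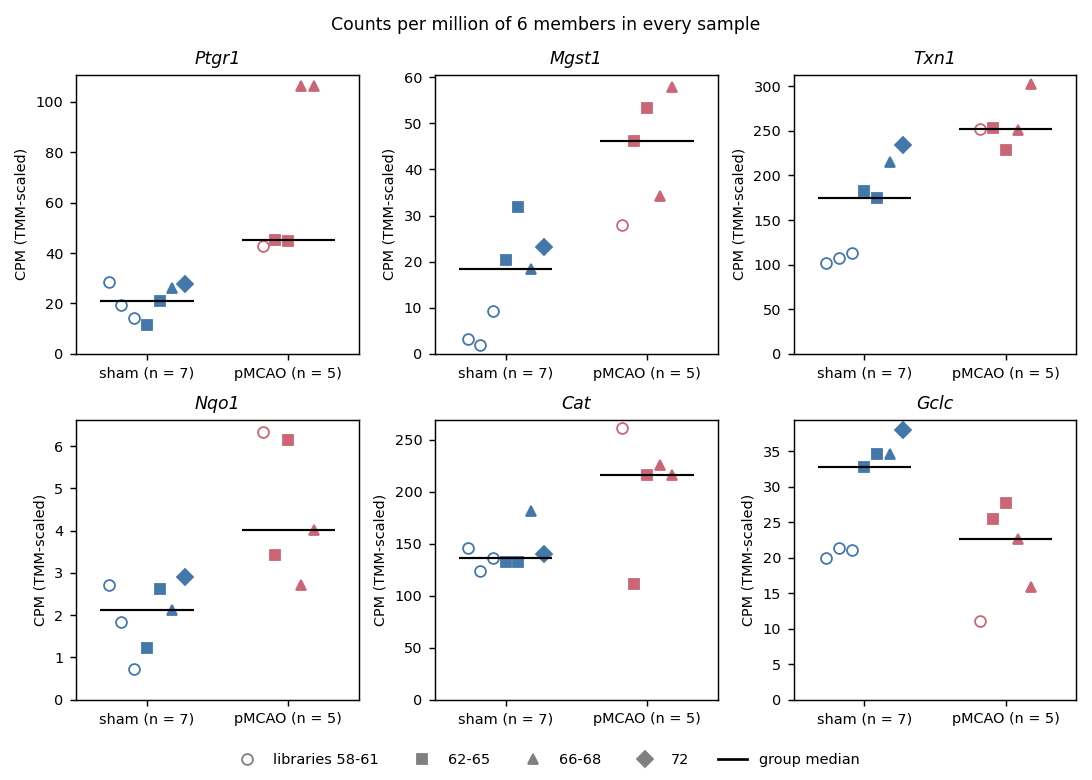
TMM-scaled CPM of 6 members in every sample, on linear axes from 0. Blue points are sham and red points pMCAO samples, the shape gives the library-number block, and the line is the group median. Ptgr1 is the gene whose groups do not overlap, and the open circles of the early libraries are the lowest sham points for Mgst1, Txn1 and Gclc.

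Thioredoxin was the member with the third smallest p. Txn1 ran from 102 to 234 CPM in sham with a median of 175, and stood at 252, 253, 229, 251 and 303 CPM in pMCAO. The groups touched only at sham 7, which lay just above pMCAO 3. Thioredoxin had a log2 difference of 0.74 (SE 0.23, unadjusted p 0.00562, adjusted p 0.387), and 0.62 with the blocks (adjusted p 0.0815). Prdx6, a peroxiredoxin that reduces phospholipid hydroperoxides with glutathione, had 9.33 to 25.9 CPM in sham and 10.9, 27.1, 27.4, 26.5 and 32.8 CPM in pMCAO. Its pMCAO 1 sample lay with the sham samples of the early libraries while the other 4 were above every sham sample (log2 0.63, SE 0.31, unadjusted p 0.056). With the blocks Prdx6 had 0.62 (SE 0.20, limma-voom unadjusted p 0.00586, adjusted p 0.188). Srxn1, the sulfiredoxin that repairs over-oxidised peroxiredoxins and a close NRF2 target, had the opposite sign (log2 -0.44, SE 0.26, adjusted p 0.653). It was highest in pMCAO 1 at 101 CPM and lay between 34.0 and 54.5 CPM in the other 4, against 40.6 to 79.3 CPM in sham. The other 6 genes of the role had log2 fold changes from -0.10 (Txnrd1) to 0.39 (Prdx3), and none had an unadjusted p under 0.05 in either fit.

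No gene of glutathione synthesis and recycling had an unadjusted p under 0.05 on group alone. Gclc, the catalytic subunit of the rate-limiting ligase, had 19.9 to 38.0 CPM in sham with a median of 32.8, and 11.1, 25.5, 27.7, 22.7 and 15.9 CPM in pMCAO. Within the 3 blocks the pMCAO samples differed from sham by -0.90, -0.34 and -0.86 on the log2 scale. For Gclc the fit gave -0.54 (SE 0.25, unadjusted p 0.0505) on group alone and -0.63 (SE 0.18, unadjusted p 0.00317, adjusted p 0.150) with the blocks. Its modifier subunit Gclm had 0.19 (SE 0.18), and Gss, which adds glycine in the last step of the synthesis, 0.38 (SE 0.22, adjusted p 0.645). The high Gss of pMCAO 1, 68.8 CPM, stood apart from the other pMCAO samples, which reached 39.4 CPM, and from sham, which reached 39.7 CPM. Gsr, which regenerates glutathione with NADPH, and Ggt1 had log2 fold changes of 0.13 (SE 0.46) and 0.05 (SE 0.26).

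None of the 4 glutathione peroxidases, which reduce hydroperoxides with glutathione, had an unadjusted p under 0.05 on group alone. Gpx1, the most widely expressed of them, had 2.88 to 51.0 CPM in sham with a median of 14.2, and 10.2, 30.6, 38.0, 24.5 and 22.7 CPM in pMCAO. The 3 lowest of these 12 values were early sham samples and the fourth was pMCAO 1. Its log2 fold change was 0.75 (SE 0.51) on group alone and 0.66 (SE 0.21, unadjusted p 0.00669, adjusted p 0.196) with the blocks. Gpx2, Gpx3 and Gpx4 had log2 fold changes of 0.19, -0.10 and 0.25, each smaller than its SE.

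Of the 11 glutathione S-transferases, 9 had a log2 fold change above 0 in either fit, against 55.2% of all genes on group alone and 51.3% with the blocks. The median over the 11 was 0.25 on group alone and 0.06 with the blocks, against 0.06 and 0.01 over all genes. Mgst1, a membrane-bound transferase and peroxidase on chromosome 6 (positions 138140316 to 138156755 of GRCm38, plus strand), had the largest log2 fold change of the members by limma-voom on group alone, while Ptgr1 had the largest with the blocks. Its sham samples had 2.05 to 31.9 CPM with a median of 18.5, and the pMCAO samples 27.9, 46.2, 53.3, 34.3 and 57.8 CPM. The overlap was between sham 5, the highest sham sample, and pMCAO 1, the lowest pMCAO sample. On the log2 scale the difference was 1.62 (SE 0.46, unadjusted p 0.0026, adjusted p 0.327) on group alone. With the blocks Mgst1 rose 2.43-fold (log2 1.28, SE 0.27, limma-voom adjusted p = 0.0486), with within-block differences of 2.76, 0.95 and 1.26. That call held in 3 of the 12 fits that left out a sample, the adjusted p reaching 0.221 without sham 6. Without the early libraries the log2 fold change was 1.08 (adjusted p 0.474).

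Gsta4, which conjugates the lipid peroxidation product 4-hydroxynonenal, showed the same kind of split by library. It had 2.16 to 34.4 CPM in sham with a median of 11.8, and 4.36, 33.2, 28.4, 37.5 and 33.6 CPM in pMCAO. All 4 early libraries lay under 5 CPM and the other 8 above 11 CPM. Gsta4 had a log2 difference of 1.10 (SE 0.62, adjusted p 0.638) on group alone and 1.06 (SE 0.24, adjusted p 0.0653) with the blocks. Mgst3 had 16.6 to 62.4 CPM in sham and 35.7 to 49.6 CPM in pMCAO (log2 0.42, SE 0.29), a difference that was 0.16 with the blocks. The other 8 transferases had log2 fold changes from -0.50 (Gstk1) to 0.93 (Gsta1), without an unadjusted p under 0.05 in either fit.

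Catalase and both superoxide dismutases, which turn superoxide into hydrogen peroxide, all had log2 fold changes above 0. Cat had 124 to 181 CPM in sham with a median of 136, and 261, 111, 216, 226 and 216 CPM in pMCAO. Sample pMCAO 2 lay below every sham sample while the other 4 lay above all of them. For catalase the difference was 0.51 on the log2 scale (SE 0.20, unadjusted p 0.021, adjusted p 0.512), and 0.45 with the blocks. Sod1, the cytosolic dismutase, had 49.3 to 119 CPM in sham and 80.2 to 127 CPM in pMCAO (log2 0.45, SE 0.22, unadjusted p 0.0603). With the blocks Sod1 had 0.50 (SE 0.18, limma-voom unadjusted p 0.0125, adjusted p 0.243). The log2 fold change of Sod1 was 0.13 (unadjusted p 0.54) without the early libraries. The mitochondrial Sod2 had a log2 fold change of 0.29 (SE 0.32).

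None of the 5 genes listed under NADPH supply had an unadjusted p under 0.05 in either fit. G6pdx, which commits glucose 6-phosphate to the pentose phosphate pathway, had 8.22 to 18.9 CPM in sham and 18.3 to 21.7 CPM in pMCAO (log2 0.35, SE 0.19, adjusted p 0.639). Me1 had 2.05 to 17.5 CPM in sham with a median of 8.69, and 3.76, 2.45, 9.77, 2.88 and 1.17 CPM in pMCAO. Its log2 fold change of -1.30 (SE 0.63, adjusted p 0.602) rested largely on the third block, where pMCAO minus sham was -3.17 on the log2 scale against -0.20 and -0.07 in the other two. Without sham 6 the value with the blocks turned to 0.10. Taldo1 was at -0.13 (SE 0.27) on group alone and 0.05 with the blocks, Tkt at 0.13 (SE 0.23) and Pgd at -0.19 (SE 0.17).

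Of 99 other genes of the same pathways, listed by role, 88 were in the table and 87 were tested. On group alone 11 of the 87 were higher and 3 lower in pMCAO at an unadjusted p under 0.05, against 4.66% and 3.77% of all genes, with a median log2 fold change of 0.21 against 0.06, and none was called. With the blocks the counts were 13 and 3, against 6.58% and 6.17% of all genes, and the median was 0.11 against 0.01. On group alone higher genes were found among the other genes listed under NADPH supply (4 of 16), the redoxins (2 of 15) and the glutathione enzymes (2 of 23, with 1 lower, Gpx7, at log2 -1.28). The carboxylesterases had 2 of 8, with 2 lower, and the other regulators and targets of NRF2 had 1 of 25.

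Lap3, an aminopeptidase that splits the cysteinylglycine left by glutathione breakdown, had the smallest p of these genes. Its sham samples had 126 to 207 CPM with a median of 143, and the pMCAO samples 435, 308, 168, 353 and 322 CPM. All but pMCAO 3 were above the sham range. Lap3 had a log2 difference of 1.00 (SE 0.22, adjusted p 0.178) on group alone, and with the blocks Lap3 rose by a log2 value of 0.92 (SE 0.19, limma-voom adjusted p = 0.0435), which is under the fold set for a call. Glutaredoxin (Glrx), which removes glutathione from protein thiols, had 22.3 to 42.3 CPM in sham and 46.4, 51.1, 43.7, 62.5 and 67.2 CPM in pMCAO, with no overlap (log2 0.70, SE 0.20, adjusted p 0.338). Txnip, which binds and inhibits thioredoxin, did not overlap either, with 90.0 to 190 CPM in sham and 206 to 270 CPM in pMCAO (log2 0.66, SE 0.20, adjusted p 0.387). Thioredoxin and its inhibitor thus stood on the same side. Glrx and Txnip were named for a small p, which favours a lack of overlap. Over all genes tested, pMCAO lay wholly above sham in 0.332%. Me2, a mitochondrial malic enzyme, was at log2 0.80 (SE 0.26, adjusted p 0.426), opposite in sign to Me1. Its place under NADPH supply is that of the list, and whether it supplies NADPH was not tested. Ces2a, an intestinal carboxylesterase, was lower, with 40.7 to 117 CPM in sham and 28.5 to 62.1 CPM in pMCAO (log2 -0.90, SE 0.27, adjusted p 0.350).

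More members were called between libraries than between groups, but the contrasts were not set up alike. The early libraries were split off because an earlier analysis of these data had found them to stand apart. Calls on such a split are favoured in advance, so its p-values describe the split and are no independent test of it. In a fit with both terms, 13 of the 45 members were called lower in the early libraries than in the later ones (28.9%), against 8.39% of all genes, and 0 members were called higher, against 3.28% (limma-voom, 14462 genes, 1687 called in all, or 11.7%). Over all genes the median of the early term was -0.15 on the log2 scale, and over the members -0.62. The 13 were 7 of 11 glutathione S-transferases, 3 of 4 glutathione peroxidases, 2 of 9 genes of the thioredoxin role and 1 of 5 of glutathione synthesis and recycling. No gene listed under NRF2 and KEAP1, NRF2 target enzymes, catalase and superoxide dismutases, or NADPH supply was called. These are names of roles in the list, and targets of NRF2 also stand in other roles. The log2 values of the 13 called members ran from -1.03 (Mgst3) to -2.77 (Gstm3). For 11 of the 13, all 4 early libraries lay below all 8 later ones, which held for 13 members in all and for 9.5% of all genes.

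Members named in this paragraph for the library contrast were chosen after their values were seen. Gstm3 had 6.78, 7.19, 5.75 and 4.87 CPM in sham 1, 2 and 3 and pMCAO 1, against 21.8 to 94.2 CPM with a median of 43.1 in the later 8 libraries. The extracellular peroxidase Gpx3 had 3.51 to 16.2 CPM in the early libraries against at least 17.6 CPM in the later ones (log2 -2.09, SE 0.41, limma-voom adjusted p = 0.00252). Gsr had 4.53 to 13.7 CPM against 21.5 to 35.6 CPM (log2 -1.90, SE 0.35, adjusted p = 0.00163). These 3 genes showed no overlap between the library groups while their pMCAO and sham values overlapped. The opposite direction was seen for Srxn1 (log2 0.73, adjusted p = 0.0256) and Taldo1 (log2 0.76, adjusted p = 0.0167), which passed the adjusted p but not the fold. Among genes that are no members, the NRF2 antagonist Bach1 had a log2 value of 0.98 (adjusted p = 0.000531).

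The count of members called lower was also 13 without the group term (9.27% of genes), without the filter (7.35%), with RLE factors (8.45%) and with mitochondrial genes removed (8.43%), and edgeR called 15 (13.7%). Among the 7 sham samples alone, 9 members were called lower in the early libraries (3.62% of 13498 genes). The markers of some epithelial cell types split by library in the same way. Goblet cell markers (7 of 7 in the table) summed to 4100 to 8060 CPM in early and 20700 to 55100 CPM in later libraries. Enteroendocrine markers (4 of 5 in the table) summed to 142 to 229 against 979 to 1900 CPM, and tuft cell markers (5 of 5, Pou2f3 and Il25 at 0 in some samples) to 16.0 to 42.9 against 148 to 695 CPM. The summed epithelial markers were higher in the early libraries, at 9850 to 12200 against 5280 to 8640 CPM, and those of enterocytes overlapped, at 19400 to 51300 against 14500 to 26600 CPM. Epcam, Vil1, Krt8 and Krt20 went with the epithelial sum, and Cdh1 overlapped. Krt19 went the other way, at 25.1 to 47.1 against 101 to 200 CPM, and so mostly did Krt18, at 116 to 247 against 235 to 581 CPM. The enterocyte list was mixed, with Alpi and Apoa1 mostly higher and Sis and Fabp1 mostly lower in the early libraries. The part of these cell types, of depth and of the share of mitochondrial RNA in the members' library differences was not tested. Sham samples made up 3 of the 4 early and 4 of the 8 later libraries, so that the contrasts of group and library overlap in part.

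**Figure D4:**
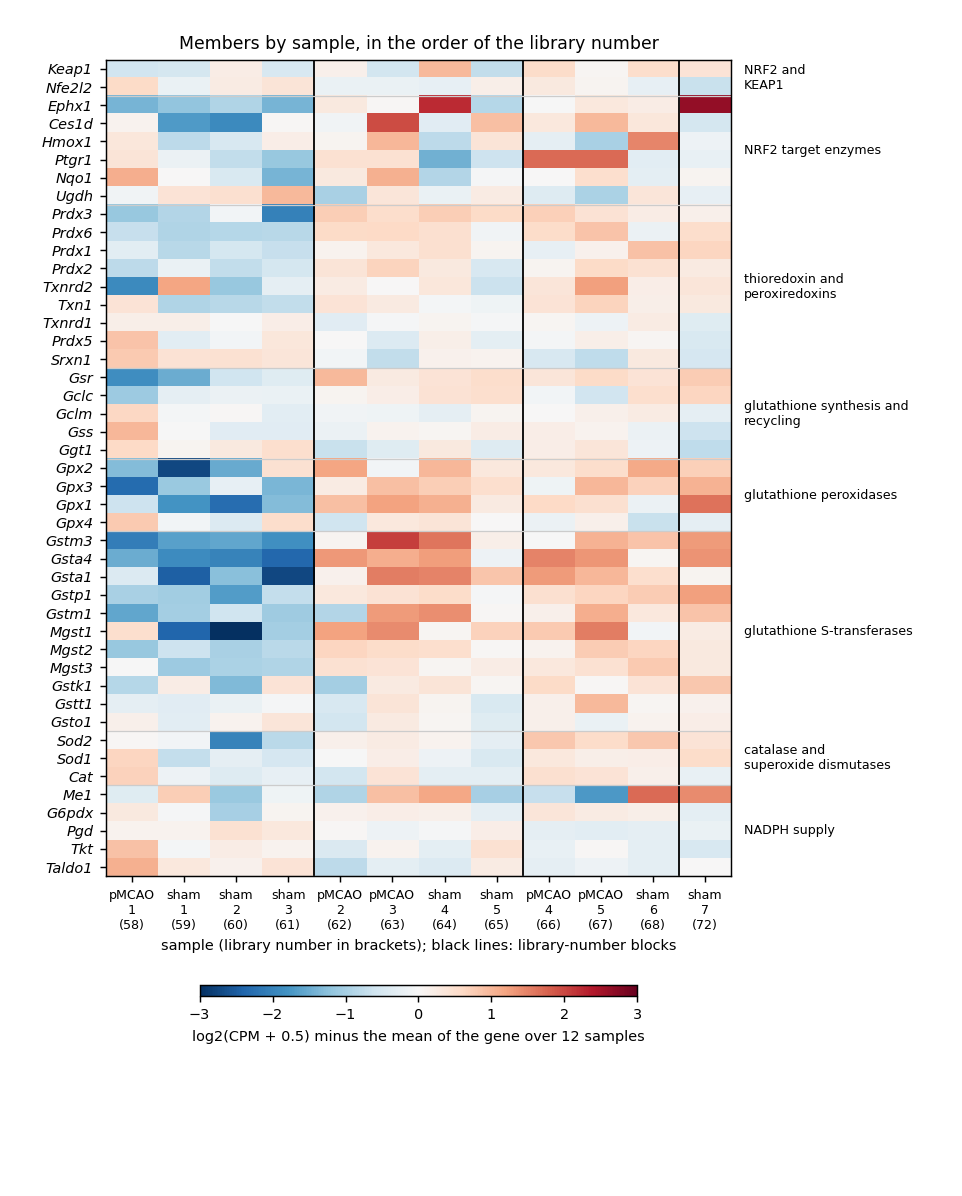
Members by role (rows) and samples in the order of their library number (columns), coloured by log2(CPM + 0.5) minus the mean of the gene over the 12 samples. Black lines separate the library-number blocks. The glutathione S-transferases and peroxidases are mostly blue in the first 4 columns, and Ptgr1 is darkest red in pMCAO 4 and 5.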

How the data were processed

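RNA of 12 samples of sorted epithelial cells (7 sham, 5 pMCAO) was sequenced. The authors depleted ribosomal RNA, read paired ends, aligned to GRCm38 with STAR through rnasik and counted genes with featureCounts. The deposited count columns hold whole-number counts per gene, not normalised. The deposited CPM columns were the same counts per library total, equal within 0.001 CPM for 190260 of 190260 values and were not used further. The authors' columns of log2 fold change, average log2 expression, p-value and FDR hold their own comparison and were not used. All 12 sample columns were matched by name, and 0 were left over.

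Genes were kept with filterByExpr (minimum count 10), which removed 1393 of 15855. Counts were scaled by TMM, and group alone was fitted by limma-voom in R 4.3.3 (with limma 3.58.1 and edgeR 4.0.16), with the study's thresholds (adjusted p of at most 0.05, absolute log2 fold change of at least 1). CPM values in the text are TMM-scaled. Alternatives were library-number blocks, an early-library term, a replicate block, edgeR's quasi-likelihood test, DESeq2 1.42.0, RLE factors, mitochondrial genes removed, no filter, and samples left out. Library 72 (sham 7) is alone in its block and then carries no information on the group difference. Gene lengths and positions are from GENCODE vM21 (GRCm38), and promoters from RefSeq (GRCm38.p6, 39 of 45 members matched). The scripts were tested on simulated data with known changes.

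The members, pathway lists, blocks and tests were chosen with earlier results of these data known. Members were named where the adjusted p was at most 0.05 in the fit on group alone or with the blocks, for the 15 smallest unadjusted p on group alone, and for the highest level per length in each role. Other pathway genes were named by the same adjusted p or among the 5 smallest unadjusted p. Each sample is labelled a biological replicate, and whether animals were pooled is not given in the sources used here. Limits from counts cover counting error only.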

Additional observations from a re-analysis of the deposited data

Results flagged for a closer look

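Within a group, 5 of 50 sets of values held a sample far from the others on the log2 CPM scale, where chance gives about 2.5. Catalase was low in pMCAO 2, at 6.80 against 7.75 to 8.03 in the other 4 pMCAO samples. Prdx6 was low in pMCAO 1, at 3.47 against 4.73 to 5.04, and so was Gsta4, at 2.16 against 4.83 to 5.23, and pMCAO 1 is the pMCAO sample among the early libraries. In the sham group, G6pdx was low in sham 2, at 3.06 against 3.77 to 4.25, and Srxn1 was low in sham 7, at 5.35 against 5.96 to 6.31.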

How the results depend on the processing

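The number of genes called between pMCAO and sham was 0 on group alone, with edgeR, RLE factors, mitochondrial genes removed, no filter, and without libraries 58 to 61 (with or without blocks, the former chosen after seeing the data). It was 47 with the blocks, 21 with edgeR and 97 with DESeq2 and the blocks (the latter added after seeing the data), 16 with the early term and 70 with DESeq2 on group alone. Members called were 0 on group alone, 2 with the blocks and with DESeq2 and the blocks, and 1 with edgeR and the blocks and with DESeq2 on group alone. Members at an unadjusted p under 0.05 were 6 on group alone and 11 with the blocks (also with edgeR or DESeq2) and with the early term. The cause of these shifts was not tested. Leaving out each sample gave 0 to 17 genes called (most without pMCAO 3) and 5 to 11 members at an unadjusted p under 0.05 on group alone (most without sham 7), and 4 to 86 genes, 0 to 2 members called and 10 to 15 members at an unadjusted p under 0.05 with the blocks (fewest genes without sham 6, most without pMCAO 3). With the replicate number as a block, 243 genes (1.68%) and 1 member (Ptgr1, log2 1.85, adjusted p 0.0094) were called and 11 members had an unadjusted p under 0.05 (17.1% of genes). The numbers do not pair the samples: deviations of same-numbered samples correlated at 0.40, -0.24, -0.16, 0.16 and 0.08, and pMCAO 1 alone correlated best with the sham sample of its own number. Small fold changes turned sign: Ggt1 was -0.12 with the replicate block, -0.09 without libraries 58 to 61 with blocks and -0.01 with DESeq2 and blocks, and -0.13 to 0.21 when a sample was left out. Taldo1 was 0.05 with the blocks, 0.09 with edgeR and 0.08 with DESeq2 and blocks, and -0.42 to 0.29 when a sample was left out. Mgst3 was 0.00 without libraries 58 to 61 with blocks and -0.02 to 0.62 when a sample was left out, and Me1 -2.09 to 0.10 (highest without sham 6, with blocks). Members called lower in early libraries were 13, and 15 with edgeR and 9 in sham samples. Counts of the lowest members limit precision: Nqo1, Hmox1, Ephx1 and Ces1d had samples with 3 counts or fewer.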
